A study of Mus musculus with 24 samples.

Results

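Cdx2 binding was mapped by ChIPmentation, a form of chromatin immunoprecipitation sequencing, in organoids of the mouse colon, and the regions described here were called in proximal organoids only. A region was made by merging the peaks of the 12 Cdx2 libraries that overlapped by at least 1 bp. Of 61454 merged regions on chromosomes 1 to 19, X and Y, 640 had a peak in all 6 proximal libraries and in none of the 6 distal libraries. These 640 proximal-only regions were chosen by the calls themselves. Their difference between proximal and distal organoids is therefore a description and was not tested.

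Cdx2, a homeobox protein, is a lineage factor of the gut lining. It is required for intestinal identity in the embryo and binds promoters and distal enhancers of genes used by differentiated epithelial cells. Homeobox factors of the Hox clusters, its evolutionary relatives, lay down position along the gut axis, and Cdx factors are known to act on Hox genes. The proximal and distal colon differ in embryonic origin and in gene expression.

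Organoids came from 3 mice, from both ends of the colon, and were grown for 4 months in WENR-plus medium, which holds Wnt3a, EGF, Noggin and R-spondin. All groups shared 1 genotype, heterozygous for a Cre-inducible BrafV600E allele and heterozygous for a tdTomato reporter. The 4 groups of 3 libraries combined a site of origin, proximal or distal, with a medium, WENR-plus or WENR-minus. WENR-minus cultures had 2 days in WENR-plus medium after plating and then 3 days without the factors. The labels number biological replicates 1 to 3 in each group but do not tie a number to a mouse, so the p-values below measure the spread between 3 libraries in each medium.

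The lists differed in length, which bears on every statement about a missing call. The 6 proximal lists held 11409 to 42192 peaks and the 6 distal lists 5608 to 21040. The peak lists carry no read counts. By the library sizes in the supplementary reporting form, the totals of distal WENR-minus replicates 1 and 3 lie within the proximal range and those of the other distal libraries lie under it. The same form gives the share of reads in peaks. In distal WENR-minus replicate 1 and distal WENR-plus replicate 2 it lies within the proximal range, and in the other distal libraries under it. The paper also reports lower Cdx2 expression in the distal than in the proximal colon. A region without a distal call was thus not called at the depth, share of reads in peaks and input of that library. The parts of depth, reads in peaks and Cdx2 level in the missing calls were not tested. Of 10 epithelial genes 8 had a peak within 3 kb of a start site in at least 1 library, and Cdh17, Krt19 and Krt20 had one in all 12. Cdh1 and Krt18 had none, Epcam had one in 1 distal library only and Krt8 in 1 proximal library only. Of 16 genes of immune, stromal, vascular, neural and muscle cells, 1 (Col1a2) had a peak, in 1 proximal library. Binding near a gene does not measure its expression, so these counts do not establish the cell type.

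The sequence under the strongest of these regions is shown first, because most of these windows hold a Cdx2 recognition word (those at Lingo2 and St6galnac1 hold none) and because the Il22 locus has a feature that decides how its peaks can be read. Each line gives 101 bases centred on the median summit of the 6 proximal libraries, from the plus strand of mm10 (GRCm38). Capitals mark the words searched for Cdx2, which begin with TTTAT and end in GA, in GG, in the letters TA or in the letters TG, or their reverse complements. The region nearest Auts2 lay at chr5:133113398-133113498, the one in Lingo2 at chr4:35992572-35992672, Iltifb at chr10:118278297-118278397, Il22 at chr10:118221094-118221194, Hoxb4 at chr11:96316446-96316546, Sqor at chr2:122760852-122760952, St6galnac1 at chr11:116772021-116772121 and Defb37 at chr8:18991212-18991312.
Auts2: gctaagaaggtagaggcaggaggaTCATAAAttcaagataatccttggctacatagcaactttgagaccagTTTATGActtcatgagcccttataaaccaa
Lingo2: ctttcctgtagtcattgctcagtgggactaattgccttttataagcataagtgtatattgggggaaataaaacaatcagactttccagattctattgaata
Iltifb: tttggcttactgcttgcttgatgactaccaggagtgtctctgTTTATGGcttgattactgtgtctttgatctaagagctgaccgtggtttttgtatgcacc
Il22: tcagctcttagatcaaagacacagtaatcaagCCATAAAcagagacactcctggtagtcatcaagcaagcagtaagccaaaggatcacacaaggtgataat
Hoxb4: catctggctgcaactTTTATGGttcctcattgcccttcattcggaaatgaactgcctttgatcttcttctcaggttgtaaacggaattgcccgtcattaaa
Sqor: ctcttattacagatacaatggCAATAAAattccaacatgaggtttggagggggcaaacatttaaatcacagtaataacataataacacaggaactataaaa
St6galnac1: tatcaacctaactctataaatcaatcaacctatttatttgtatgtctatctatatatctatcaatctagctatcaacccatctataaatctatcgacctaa
Defb37: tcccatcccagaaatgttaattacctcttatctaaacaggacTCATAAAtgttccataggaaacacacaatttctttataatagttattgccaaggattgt

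Peak strength was read as the fold enrichment that the peak caller gave at the summit over the matched input, and as the percentile of that fold within the list of its library. Over the 640 regions the median fold was 6.37 to 7.42 in the 6 proximal libraries. The median percentile was 59.0 to 79.7. The other 5365 regions called in all 6 proximal libraries also had a call in at least 1 distal library, and their median percentile was 71.5 to 90.9 in the same lists. In each of the 6 lists the proximal-only median was the lower one. The mean percentile of a proximal-only region over the 6 lists ran from 21.5 to 99.4 with a median of 63.2, and 35 of 640 (5.47%) were above 90 against 23.5% of the regions shared with distal organoids. The median SD of a region's percentile over the 6 lists was 19.5 for proximal-only and 14.01 for shared regions.

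A distal call was missing more often the weaker the region was. Among regions called in all 6 proximal libraries with a mean percentile of at most 50, 136 of 497 (27.4%, 95% Wilson interval 23.6 to 31.5) had no distal call. The share was 15.1% between percentiles 50 and 75, 6.69% between 75 and 90, 3.44% between 90 and 95 and 1.47% (6 of 408) between 95 and 98. Above percentile 98 it was 7 of 251 (2.79%, 1.36 to 5.64). Of those 251 strongest regions 227 (90.4%) were called in all 12 libraries. Most of the 640 regions thus had moderate folds, and a small group of them stood among the strongest peaks of the proximal lists.

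**Figure D1:**
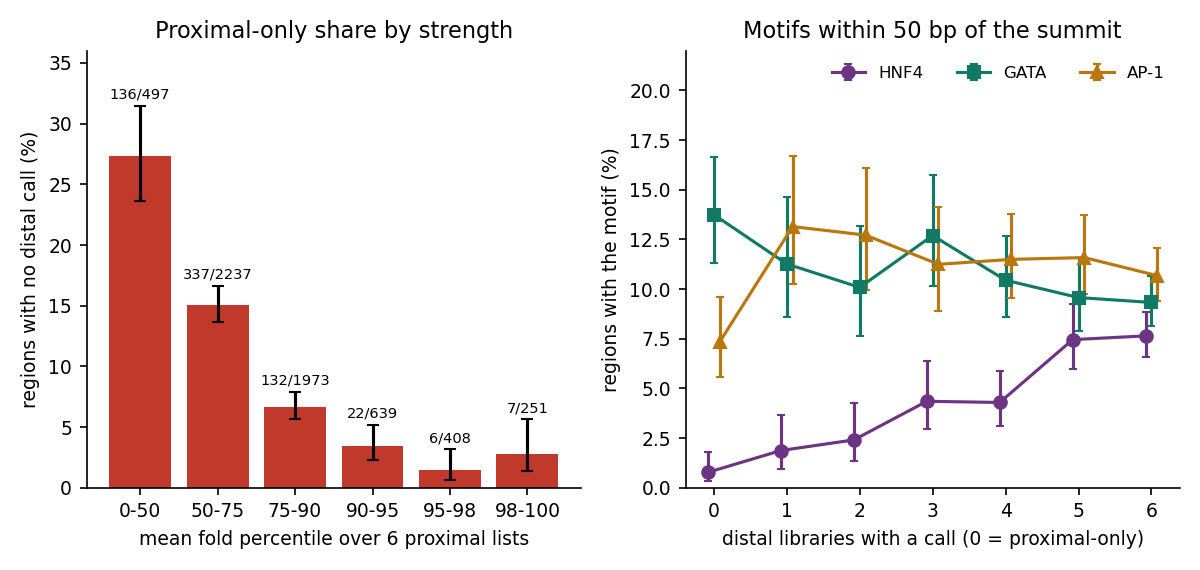
Left, share (%) of the 6005 regions called in all 6 proximal libraries that had no distal call, by mean fold percentile, with counts and 95% Wilson intervals. Right, share (%) of the same regions with an HNF4, GATA or AP-1 word within 50 bp of the summit, by the number of distal libraries with a call. The proximal-only share falls from 27.4% to between 1.47% and 2.79%, and the HNF4 share rises from 0.781% with no distal call to 7.65% with 6.

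The 10 regions with the highest mean percentile lay near Auts2, Lingo2, Iltifb, Il22, Hoxb4, Sqor, St6galnac1, Defb37, Adam18 and Cox7c, where the name is that of the nearest protein-coding start site. The region nearest Auts2, a gene with a role in neural development, lay in intergenic sequence 570 kb from that start site. Its fold was 23.1, 32.9 and 37.2 in WENR-plus replicates 1 to 3 and 32.8, 25.8 and 26.3 in WENR-minus replicates 1 to 3, so the media overlapped. The region in an intron of Lingo2, a neuronal membrane protein, had folds of 30.7, 32.3 and 35.6 in WENR-plus and 24.2, 22.5 and 38.1 in WENR-minus organoids. No Cdx2 word lay within 50 bp of its summit.

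The region 1.77 kb from the Hoxb4 start site and 0.669 kb from that of the microRNA gene Mir10a spanned chr11:96315908-96317043. Hoxb4 is one of the genes that set position along the body axis, and Mir10a is the microRNA gene that sits within the same cluster. The fold was 25.4, 25.3 and 40.7 in WENR-plus and 23.4, 15.9 and 24.4 in WENR-minus organoids, for a mean percentile of 98.8 ± 1.17 (SD over 6 libraries). All 6 folds were at least 15.9, and every WENR-minus value was below every WENR-plus value.

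Sqor codes for the mitochondrial enzyme that oxidises hydrogen sulfide, a gas made by bacteria of the colon. The region 4.33 kb from its start site had folds of 16.8, 18.1 and 27.7 in WENR-plus and 23.4, 18.8 and 24.8 in WENR-minus organoids. Its media overlapped. St6galnac1 codes for a sialyltransferase that acts on mucins. The region in its intron, 3.44 kb from the start site, had 13.3, 17.5 and 20.02 in WENR-plus and 25.5, 24.1 and 31.8 in WENR-minus organoids, so every WENR-minus value was above every WENR-plus value. Its summit window held no Cdx2 word and 24.8% of it was annotated as repeat.

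Defb37 codes for a beta-defensin. Its region had a summit 0.207 kb from the start site, with folds of 19.3, 27.0 and 23.1 in WENR-plus and 14.3, 15.2 and 21.5 in WENR-minus organoids. Adam18 codes for a membrane protein of the male germ line, and its region at 2.69 kb had 19.6, 23.2 and 40.7 in WENR-plus and 12.6, 13.8 and 12.4 in WENR-minus organoids. There the WENR-minus values were all below the WENR-plus values. With 3 libraries in each medium such a separation, here or at any other region, can arise by chance. Its share over all regions was not counted. The region 21.2 kb from Cox7c, which codes for a subunit of cytochrome c oxidase, had 11.4, 14.7 and 19.6 in WENR-plus and 13.4, 13.1 and 18.1 in WENR-minus organoids.

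**Figure D2:**
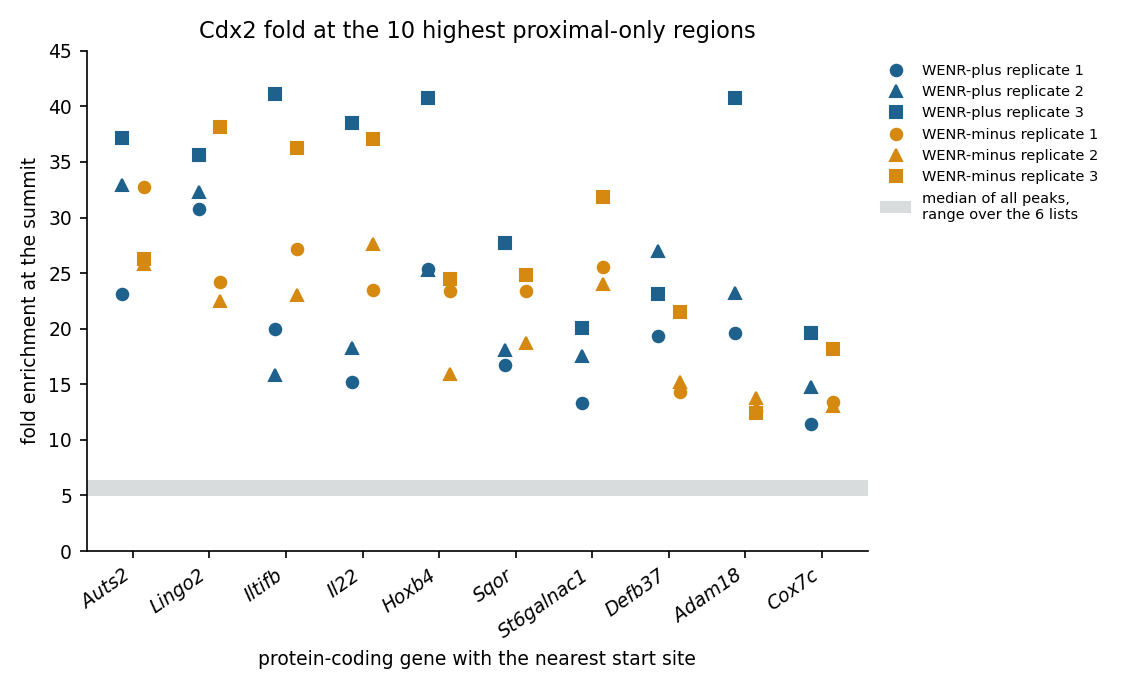
Fold enrichment at the summit (linear axis) for the 10 proximal-only regions with the highest mean percentile, named by the nearest protein-coding start site. Blue marks WENR-plus and orange WENR-minus libraries, shapes mark replicate numbers, and the grey band spans the medians of all peaks in the 6 proximal lists (5.02 to 6.26). All points lie above the band, from 11.4 to 41.1.

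The regions near Il22 and Iltifb were 1 sequence present in inverted copies. Il22 codes for interleukin 22, a cytokine that acts on epithelial cells and drives their defence genes, and Iltifb is its near-identical neighbour in some mouse strains. Over 301 bases around the summit the region near Il22 (chr10:118220567-118221716) matched the opposite strand of chr10:118278177-118278477 with 100% identity, and that stretch lies in the region near Iltifb (chr10:118277685-118278930). The printed lines show it, since the reverse complement of the Iltifb line overlaps the Il22 line. Reads from such copies cannot be assigned to one of them, so the paired regions count as 1 observation. The fold near Il22 was 15.2, 18.2 and 38.5 in WENR-plus and 23.5, 27.6 and 37.0 in WENR-minus organoids. Near Iltifb it was 19.97, 15.8 and 41.1 in WENR-plus and 27.1, 23.0 and 36.3 in WENR-minus organoids, with replicate 3 the highest in both media at both places.

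A further proximal-only region near Il22, at chr10:118222045-118222814, had a mean percentile of 50.1 and folds of 4.62 to 6.97. Its 301 bases also occurred at chr10:118277033-118277333 with 100% identity, and there a region was called in 5 proximal libraries and 1 distal library. The call pattern thus differed between identical sequences, by 1 library in each direction.

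In all, 30 of the 640 regions (4.69%, 95% Wilson interval 3.30 to 6.61) had a further place in the genome at 95% identity or more over at least 270 of 301 bases. The share was 6.80% (365 of 5365) in regions shared with distal organoids. For 2 of the 30 the other place overlapped the region itself, as in a tandem repeat. For 12 the search found 12 to 48 other places, as dispersed repeats have. It capped the number of alignments kept for each region, so these counts are lower limits. At 10 of the 30 the best other place carried a region with a distal call, 2 of them called in all 12 libraries. The summit lay in annotated repeat for 15.3% of proximal-only and 20.2% of shared regions.

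Calls were sorted into promoter (summit within 3 kb of any annotated start site), exon, intron and intergenic sequence. Of the 640 regions 112 (17.5%, 14.8 to 20.6) were at promoters, 14 (2.19%) in exons, 279 (43.6%) in introns and 235 (36.7%) in intergenic sequence. Shared regions had 20.6% promoters and 37.5% introns (36.2 to 38.8), and the interval for introns of the proximal-only regions was 39.8 to 47.5. The median distance to a protein-coding start site was 23.9 kb for proximal-only and 20.5 kb for shared regions, and 20.5% and 17.7% lay beyond 100 kb. The intervals assume independent regions and cover counting error only.

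Within 1 kb of a protein-coding start site lay 21 of the 640 regions (3.28%), against 4.77% of shared regions. The 10 with the highest mean percentile were at Defb37, Gm11111, Dao, Slc18a1, Apol10a, 1700016H13Rik, Lemd2, C530008M17Rik, Hmgcll1 and Nup160. After Defb37, at percentile 97.8, the mean percentile dropped to 81.0 at Gm11111 and ran down to 68.4 at Nup160. Dao codes for D-amino-acid oxidase, and its region, with a summit 420 bp from the start site, had a median fold of 8.87 with a range of 5.99 to 10.5. Slc18a1 codes for a vesicular monoamine transporter used by endocrine cells, and it had 2 such regions with median folds of 8.87 and 6.05. Apol10a belongs to the apolipoprotein L family. Its region had a median fold of 8.75 and is one of the 30 with a further copy (98.7% identity), which lies at a region called in 5 proximal libraries and no distal library. Slc13a1, the sodium sulfate cotransporter of kidney and intestine, had a region 129 bp from its start site with folds of 4.01 to 8.06. Ahr, the aryl hydrocarbon receptor that senses ligands from diet and microbes, had a weak one with folds of 4.12 to 7.21. Slc13a1 and Ahr were picked out after their values were seen.

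Within 50 kb of a proximal-only region lay the start sites of 780 of 21911 protein-coding genes (3.56%), and 203 of the 640 regions had no such gene. Of the 780 genes 45 had 2 or more regions and 6 had 3 or more (Smap1 with 4, and Gm32717, Gm32802, Zfp280d, Vav3 and Prl5a1 with 3 each). Gm32717 and Gm32802 lie between the Il22 and Iltifb copies, so their 3 regions include the pair that cannot be told apart. Shared regions lay within 50 kb of 5399 genes (24.6%), and 386 of the 780 genes had proximal-only regions and no shared region. Gene lists were read against the 3.56% of all genes, and no list was tested. Of the 5785 genes within 50 kb of any region called in all 6 proximal libraries, 13.5% had a proximal-only one. On that base the share was 64.9% for Hox genes and 30.8% for mucosal defence genes. It was 15% for transporters, 14.3% for intestinal transcription factors, 11.1% for goblet cell and mucin genes and 16.7% for genes of non-epithelial cells. These last shares lay near the 13.5%.

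Hox genes had the highest share, 24 of 39 (61.5%), from 4 regions, since neighbouring Hox genes lie close together and count the same region. The 3 of these regions with the highest mean percentile are described here. Of the 39 genes 36 (92.3%) also had a shared region within 50 kb, so these are clusters with binding in distal organoids as well. The Hoxb cluster held 2 proximal-only regions within 50 kb of 9 genes. The stronger one is the region near Hoxb4 described above. The other, at chr11:96283385-96283984 and 1.01 kb from Hoxb8, had folds of 13.0, 10.7 and 14.5 in WENR-plus and 6.99, 8.49 and 5.58 in WENR-minus organoids. Its WENR-minus values were all below its WENR-plus values, and no Cdx2 word lay within 50 bp of its summit. Between the pair of Hoxb regions lay a region near Hoxb6 called in all 6 proximal libraries and 1 distal library and another near Hoxb5 called in 5 proximal and no distal library. At the Hoxb9 and Hoxb8 end of the cluster 2 regions were called in all 12 libraries. At the Hoxb4 end a region at chr11:96319102-96320100, 1.16 kb from Hoxb4, was called in 6 proximal and 2 distal libraries, with a mean percentile of 96.2.

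The Hoxd cluster held 1 region, at chr2:74700917-74701470, with a median fold of 8.87 (5.64 to 10.96), 3.37 kb from Hoxd9 and within 50 kb of 8 Hoxd genes.

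**Figure D3:**
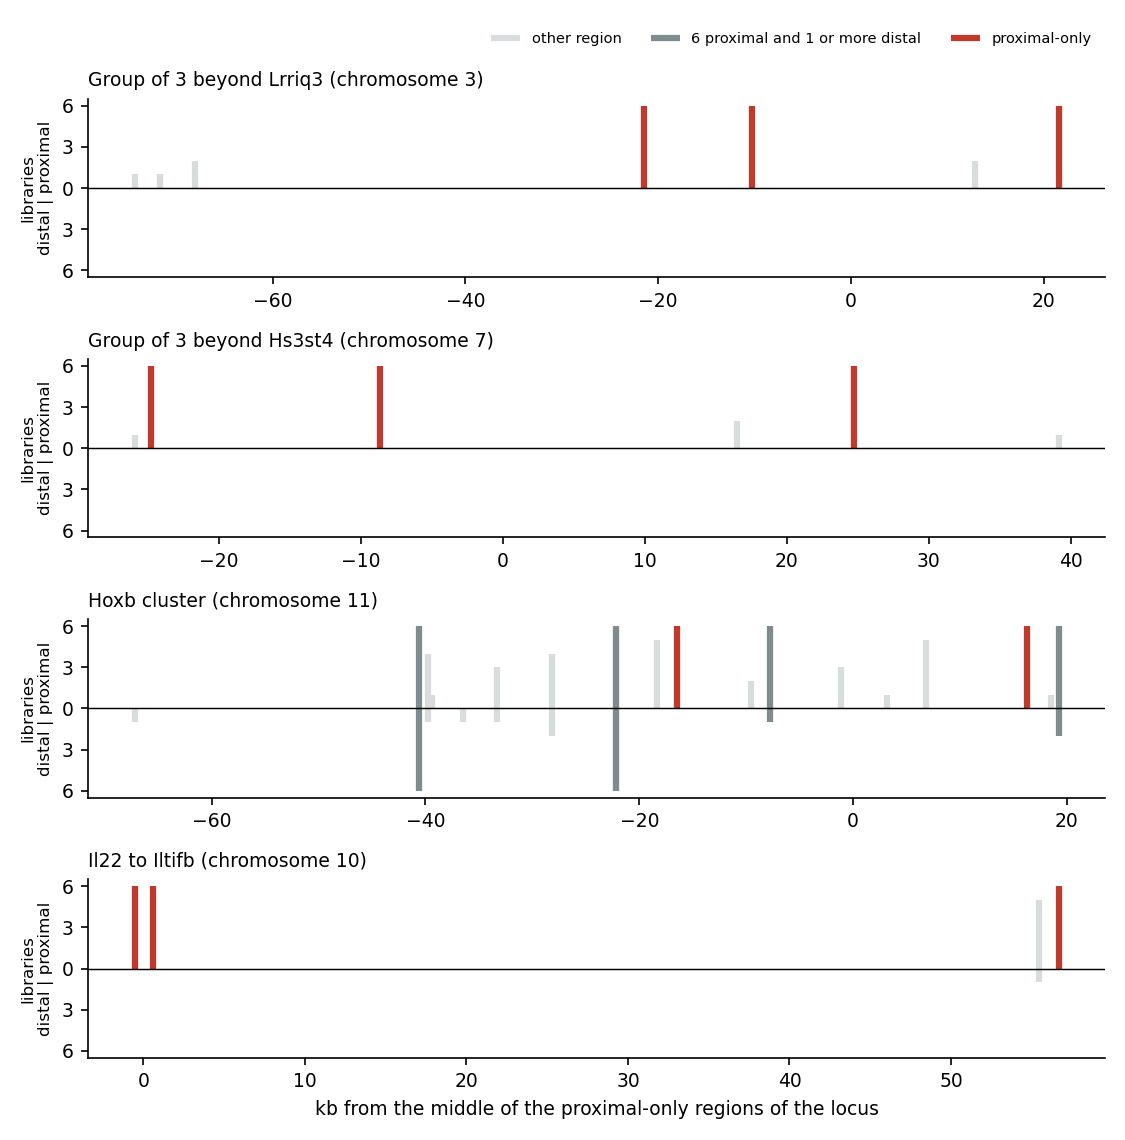
Regions at 4 loci, by distance in kb from the middle of the proximal-only regions there. Bars above the line give the number of proximal libraries with a call and bars below it the number of distal libraries, with proximal-only regions in red and regions called in 6 proximal and at least 1 distal library in dark grey. The groups of 3 beyond Lrriq3 and Hs3st4 have no distal bar between them, while the Hoxb cluster mixes all classes.

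Mucosal defence genes came next, with 4 of 20 (20%). Besides Il22 and Iltifb these were Naip1, a sensor of bacterial proteins, and Tlr4, the receptor for lipopolysaccharide. The region 31.9 kb from Naip1 had a median fold of 5.52 (4.81 to 6.45), and the region 21.8 kb from Tlr4 one of 4.64 (3.78 to 7.41). Both were below the median proximal-only region in mean percentile, at 49.7 and 39.1. With the copies at Il22 and Iltifb taken as 1 locus, the list has 3 loci.

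Of 36 transporters 3 (8.33%) had a proximal-only region within 50 kb. These were Cftr, the chloride channel of the apical membrane (48.3 kb, median fold 5.41), Slc11a2, the iron transporter (45.6 kb, 6.28), and Aqp4, a water channel (16.7 kb, 4.53). All 3 regions had mean percentiles under 50, from 22.5 to 46.5. Of 30 intestinal transcription factors 2 (6.67%) had one. Nr1h4 codes for the bile acid receptor FXR, and the region in its intron 6.12 kb from a start site had folds of 7.61, 8.78 and 6.65 in WENR-plus and 7.82, 7.43 and 9.26 in WENR-minus organoids. The media overlapped there.

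Muc4, a membrane mucin, was the 1 of 16 goblet cell and mucin genes with a proximal-only region, and it is described with the media below. None of 24 brush border and digestive enzyme genes, 20 lipid handling genes, 19 enteroendocrine genes, 19 stem cell and Wnt target genes or 10 epithelial defining genes had one. Lists this short can hold none by chance. Shared regions lay within 50 kb of 13 of the 24 brush border genes, 5 of the 20 lipid genes, 6 of the 19 stem cell genes and 8 of the 10 epithelial genes. Of the 16 genes of non-epithelial cells 1, Acta2, had a weak proximal-only region at 31.1 kb with a median fold of 5.92.

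Most proximal-only regions had no other proximal-only region within 50 kb. The median distance to the nearest other proximal-only region was 875 kb, while the median distance to the nearest shared region was 63.5 kb, and 45.5% lay within 50 kb of a shared region. Linking summits up to 50 kb apart put 94 of the 640 in 44 groups of at least 2 and 18 (2.81%) in 6 groups of 3, with none larger. Linking all 6005 regions called in the 6 proximal libraries put 22.6% of them in groups of at least 3, the largest with 11, and 22.03% of the proximal-only regions were in such mixed groups. A sparser set of regions makes fewer groups and longer distances. The 875 kb and 63.5 kb, and the 2.81% and 22.6%, are therefore not comparable as degrees of clustering.

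The strongest group of 3 spanned chr3:155444698-155488584 in intergenic sequence, and the nearest protein-coding start site, that of Lrriq3, was 352 to 395 kb away. Its regions had mean percentiles of 93.3, 89.9 and 92.9. The first had folds of 11.4, 9.25 and 12.7 in WENR-plus and 18, 12.6 and 17.03 in WENR-minus organoids. The middle one had 6.86, 11.9 and 14.1 in WENR-plus and 15.9, 10.6 and 12.8 in WENR-minus organoids. The last had 9.51, 15.4 and 12.9 in WENR-plus and 16.9, 11.3 and 13.1 in WENR-minus organoids. All 3 had at least 1 Cdx2 word, and the only other region in the span was called in 2 proximal libraries.

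Another group of 3, at chr7:124372587-124422695, 390 to 440 kb from Hs3st4, had mean percentiles of 69.8, 85.2 and 65.9. The group in introns of Vav3, a guanine nucleotide exchange factor, spanned chr3:109582147-109624391 and had 76.6, 39.3 and 61.3. Among the Vav3 regions stood one called in all 12 libraries, with a mean percentile of 96.2. The group near Prl5a1, a prolactin family gene, at chr13:28115869-28171869 had 64.3, 51.8 and 51.8, and the first of its regions had at least 47 other places in the genome.

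The Cdx2 words lay within 50 bp of the summit in 411 of the 640 regions (64.2%, 60.4 to 67.8). In windows of the same length 1000 bp to either side the share was 9.92%. Shared regions had 69.0% (67.7 to 70.2), and regions called in all 12 libraries 71.6%. The share followed strength. In proximal-only regions it was 52.3%, 67.0% and 73.4% from the weakest to the strongest of 3 equal groups by mean percentile. Within percentiles 50 to 75 it was 64.4% in proximal-only and 63.9% in shared regions, and within 75 to 90 it was 73.5% and 71.4%. At like strength the intervals of the shares overlapped. The word TTTATGA was held by 19.5% (16.7 to 22.8) of proximal-only and 27.7% (26.5 to 28.9) of shared regions, TTTATGG by 20.2% and 19.4%, TTTATTA by 16.1% and 16.9%, and TTTATTG by 22.5% and 24.3%. The single words were not compared at like strength. The median distance of the nearest word to the summit was 22 bp in both classes.

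Words of other factors were counted in the same windows on both strands. HNF4 receptors, nuclear receptors of differentiated intestinal cells, were searched as CAAAGTCCA and CAAAGGTCA. Of the 640 proximal-only regions 5 held one (0.781%, 0.334 to 1.82), against 5.83% (5.24 to 6.49) of shared regions. The share was 1.88%, 2.41%, 4.36%, 4.30%, 7.46% and 7.65% in regions with 1, 2, 3, 4, 5 and 6 distal calls. In proximal-only regions it was lower than in shared regions within each of 4 ranges of strength, with intervals that overlapped up to percentile 50 and above 90. Up to percentile 50 it was 1 of 136 (0.735%) against 2.77%. Within percentiles 50 to 75 it was 3 of 337 (0.890%, 0.303 to 2.58) against 3.32% (2.60 to 4.22), within 75 to 90 it was 1 of 132 (0.758%, 0.134 to 4.17) against 6.14% (5.13 to 7.33), and above 90 it was 0 of 35, with an upper limit of 9.89%, against 10.1%. The windows 1000 bp away held it in 0 of 1280 proximal-only cases, which allows a share of up to 0.299%, and in 0.298% of shared cases.

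GATA factors were searched as AGATAA, found in 13.8% (11.3 to 16.6) of proximal-only and 10.1% (9.34 to 10.96) of shared regions. AP-1 was searched as TGANTCA, found in 7.34% (5.57 to 9.63) of proximal-only and 11.4% (10.6 to 12.3) of shared regions. TCF factors of the Wnt pathway were searched as CTTTGAT, found in 5.16% (3.70 to 7.15) and 3.00% (2.58 to 3.49). In each of the 4 ranges of strength proximal-only regions had the higher GATA and TCF share and the lower AP-1 share. The GATA and TCF intervals overlapped in every range. Those of AP-1 overlapped in all but percentiles 75 to 90, at 3.79% (1.63 to 8.56) against 10.9% (9.57 to 12.4). Regions with 3 distal calls held the GATA word in 12.7%. FOXA was searched as TGTTTAC, found in 4.06% and 3.34%, HNF1 as GTTAATNAT, found in 1.09% and 1.19%, and KLF as GGGCGTGG or GGGTGTGG, found in 0.781% and 1.25%. Background windows of the proximal-only regions held the GATA word in 6.56%, the AP-1 word in 3.59% and the TCF word in 2.03%. An HNF4, GATA or AP-1 word shared a base with a Cdx2 word in 1, 6 and 8 proximal-only regions. A word is a match of letters and not a bound site.

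Membership was read again in libraries that had no part in it. Regions were chosen on the 8 libraries of 2 replicate numbers, called in their 4 proximal and none of their 4 distal libraries, and the calls of the remaining number were counted. With replicate 1 left out, 895 regions were chosen, and 94.0% and 98.6% of them were called in its proximal WENR-plus and WENR-minus libraries against 4.25% and 19.7% in its distal ones. With replicate 2 left out, 1374 were chosen, and the shares were 93.0% and 60.1% in proximal against 17.9% and 3.20% in distal libraries. With replicate 3 left out, 1452 were chosen, with 61.7% and 60.9% in proximal against 2.89% and 8.33% in distal libraries. Regions called in the same 4 proximal and at least 1 of the 4 distal libraries were called in 58.2% to 99.2% in the proximal and 36.7% to 87.3% in the distal libraries left out. In each of the 6 distal libraries the share was lower for the proximal-only choice. The mean over the 6 distal libraries was 9.37% for the proximal-only choice and 64.0% for the shared one. The choices differ by their distal calls in the other libraries and were not matched for strength. A lower distal share is therefore largely built into the choice. The libraries left out may also come from mice that gave libraries to the choice. These shares are a description and were not tested.

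The distal calls that kept regions out were unevenly spread. Of 426 regions with all 6 proximal calls and 1 distal call, 152 had it in distal WENR-minus replicate 1, 129 in distal WENR-plus replicate 2 and 90 in distal WENR-minus replicate 3, the libraries with 21040, 13371 and 7904 peaks. Of 695 regions with 5 proximal calls and no distal call, 376 (54.1%) lacked the call in proximal WENR-minus replicate 2. Leaving that library out raised the number of proximal-only regions from 640 to 1016.

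Just outside the rule stood regions as strong as those inside it. The strongest with 1 distal call lay in an intron at chr6:67427308-67428379, 51.7 kb from Il12rb2, with proximal folds of 18.4 to 41.5 and a fold of 5.24 in distal WENR-minus replicate 3. The region at chr9:92856064-92857027, 255 kb from Plod2, had 13.6 to 24.7 against 5.81 in distal WENR-minus replicate 1. Those 382 kb from Fscb and in an intron of Btbd9 had proximal folds of 12.4 to 22.2 and 10.97 to 21.8, with a distal fold of 4.20 and 4.73. The strongest with 5 proximal calls and no distal call lay near Hoxb5, Ces1e, Zwint, Scarb1 and Btnl9, with mean percentiles of 81.7 to 85.7. Scarb1 codes for a lipoprotein receptor of enterocytes, and its region 2.79 kb from the start site had folds of 7.21 to 9.91 and no call in proximal WENR-plus replicate 3.

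The media were compared within the proximal libraries, where the choice of regions had asked for a call in every list. The shortest proximal list was that of WENR-minus replicate 3 (11409 peaks). Regions with 5 proximal calls and no distal call most often lacked the one in WENR-minus replicate 2 (376 of 695). A weak region had to pass in both to enter, so the comparison is not fully independent of the choice. Its part in the values below was not tested. The comparison used log2 fold, centred on the median of each library, over all 6005 regions called in the 6 proximal libraries. With limma without the replicate number as a block, and Benjamini-Hochberg adjustment, 0 of 6005 regions (0%) had an adjusted p under 0.05, 0 of them proximal-only. The lowest adjusted p was 0.287. The limma p-values of single regions below are of this fit, and the fit with the block is given in the closing section. At an unadjusted p under 0.05 limma put 371 regions (6.18%) higher and 211 (3.51%) lower in WENR-minus medium. Among the 640 proximal-only regions 76 (11.9%) were higher and 18 (2.81%) lower.

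The median log2 difference, WENR-minus minus WENR-plus, was 0.156 over the proximal-only regions (414 of 640 above 0) and −0.013 over the shared regions (2604 of 5365 above 0). The proximal-only median was the higher one in each of 4 equal groups by mean fold, at 0.135 against 0.0632, 0.1 against −0.027, 0.163 against −0.0565 and 0.320 against −0.018 from the weakest to the strongest group. In the weakest group the shared regions, which passed the same 6 lists, were above 0 as well. Without centring all regions shifted by a median of −0.156, the proximal-only median was −0.00193, and 143 of 612 regions at an unadjusted p under 0.05 were higher in WENR-minus (39 of 68 proximal-only). On percentiles within the list 76 of 366 were higher (30 of 71 proximal-only). The direction of the proximal-only regions is therefore relative to the other regions of the same libraries.

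The regions with the lowest p in each direction give the size of these differences. A choice by low p makes a lack of overlap between the media likely, so that lack is no further result. How many of the 6005 regions lack overlap was not counted. The region in an intron of Gabbr2, a GABA-B receptor subunit, at chr4:46960763-46961629 had folds of 5.75, 5.02 and 6.97 in WENR-plus and 18, 9.20 and 21.3 in WENR-minus organoids. The log2 difference was 1.54 ± 0.31 (SE), with a limma adjusted p of 0.287. The groups did not overlap, with the lowest WENR-minus value above the highest WENR-plus value.

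At Muc4, which codes for a membrane mucin of goblet and surface cells, the region at chr16:32725661-32726401 lay 9.91 kb from the protein-coding start site and within 3 kb of another annotated one. Its folds were 7.55, 4.56 and 3.37 in WENR-plus and 12.5, 8.01 and 12.6 in WENR-minus organoids. The log2 difference was 1.30 ± 0.30, with a limma adjusted p of 0.292. Again every WENR-minus value was above every WENR-plus value.

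The region 2.72 kb from Slc17a2, a phosphate transporter family gene, at chr13:23809437-23810127 had 4.75, 5.64 and 5.09 in WENR-plus and 9.13, 9.91 and 9.63 in WENR-minus organoids. The region in an intron of Csgalnact1, a chondroitin sulfate enzyme, had 11.7, 6.58 and 7.05 in WENR-plus and 18, 19.8 and 14.8 in WENR-minus organoids. The region 276 kb from Cdc5l, a splicing factor gene, had 6.66, 5.33 and 6.55 in WENR-plus and 12.4, 11.3 and 12.2 in WENR-minus organoids. These 3 did not overlap between media, with log2 differences of 1.05, 1.25 and 1.12 and a limma adjusted p of 0.287 each.

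Lower in WENR-minus organoids was the region 161 kb from Mid1ip1, a regulator of lipid synthesis, at chrX:10877576-10878478. Its folds were 15.5, 18.8 and 18 in WENR-plus and 5.09, 6.37 and 6.66 in WENR-minus organoids, a log2 difference of −1.38 ± 0.25. The limma adjusted p was 0.287. The next 4, near Socs6, Atxn7l1, Adam18 and Parp1, had log2 differences of −0.78, −0.84, −0.88 and −0.67 and did not overlap between media. Their limma adjusted p was 0.344 to 0.406.

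**Figure D4:**
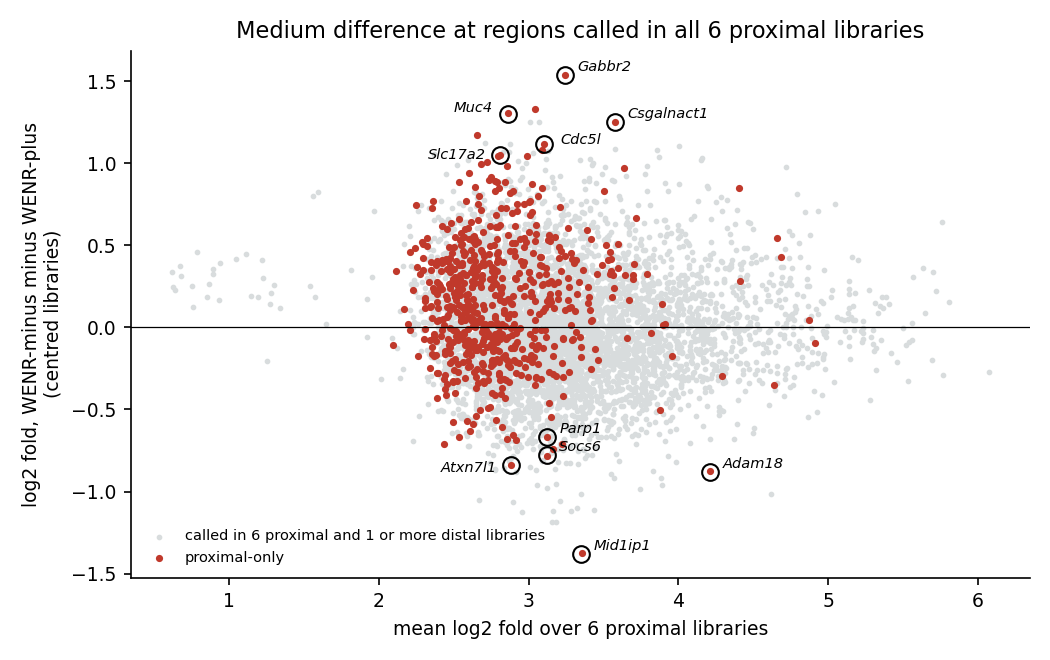
Difference in log2 fold between media (WENR-minus minus WENR-plus, libraries centred on their medians) against mean log2 fold, for the 6005 regions called in all 6 proximal libraries. Red points are the 640 proximal-only regions, light grey points the 5365 shared ones, and circles the 5 proximal-only regions of lowest p in each direction, labelled by the nearest protein-coding start site. The red points lie mostly at lower mean fold and slightly above 0 (median 0.156). In the fit without the replicate number as a block, none of the circled regions had a limma adjusted p under 0.05. The fit with the block is given in the closing section.

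Across the 640 regions the folds of 2 proximal libraries were only loosely related. Spearman's rho over the regions was 0.353 to 0.401 between the media of one replicate number, 0.443 to 0.574 between replicates in the same medium and 0.298 to 0.399 between replicates in different media. Over the 5365 shared regions these were 0.681 to 0.721, 0.561 to 0.777 and 0.466 to 0.713. The regions are not independent replicates and the pairs of libraries share a replicate number or a medium, so no p is given. A narrower range of fold lowers such a rho, and its part here was not tested. The 10 strongest proximal-only regions kept mean percentiles of 94.9 to 99.5 with any replicate number left out.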

How the data were processed

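Cdx2 ChIPmentation peak lists of 12 libraries in 4 groups of 3 were used. The 12 input samples had no list of their own here and were not analysed. By the published methods, reads were trimmed, aligned to mm10 and cleared of duplicates by the authors, who then called peaks in each library by itself at a q-value limit of 0.01 against the matched input. The submitters' processing notes name Trimmomatic 0.39, Bowtie2 2.4.5, SAMtools 1.13 and MACS2 2.2.7.1, while the supplement of the study lists other versions of Bowtie2 and SAMtools. The authors deposited, for each peak, a score, the fold enrichment (a ratio of pileup to local background at the summit), −log10 p-value, −log10 q-value and summit offset. The lists hold no read counts, so the depth behind a single peak is unknown. The library sizes given in the supplementary reporting form entered no calculation. Tests and comparisons of classes of regions used a fold on the log2 scale, as a percentile of its list or after centring. Folds printed for single regions, and statements on overlap between media, are as deposited. Whether the authors kept reads with several equal alignments is not given in the sources used here.

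Overlapping peaks (1 bp or more) on chromosomes 1 to 19, X and Y were joined into regions (Python 3.11.15). Each region took its highest-fold peak per library and the median summit. Start sites were from GENCODE vM21 on GRCm38, and sequences were read from the RefSeq GRCm38.p6 genome. Copies were searched with minimap2 2.31 over 301 bases. The medium was tested with limma 3.58.1 (two-sided, R 4.3.3), 3 against 3, without the replicate block as the main fit, and it was checked on simulated data. The labels give replicate numbers that no source used here ties to a mouse, so libraries were not treated as paired.

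The regions named were the 10 of highest mean percentile, the 5 groups with most regions, the 10 strongest within 1 kb of a protein-coding start site, the strongest near each gene list, the 5 of lowest p in each direction and the 5 strongest just outside the rule in each class. A few of the regions this rule names are not reported here. Members, gene lists and this naming rule were chosen with earlier results of these data known. Alternatives were the peak threshold, list length, overlap rule, windows, scaling and leaving libraries out. Leaving out regions with a second copy and ranking by −log10 q were added after seeing the data. Intervals are 95% Wilson intervals.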

Additional observations from a re-analysis of the deposited data

How the results depend on the processing

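The number of proximal-only regions was 639 with an overlap of at least 50% of the shorter peak, 622 with summits within 200 bp, 537 with peaks of −log10 q of at least 5 and 610 without regions that have a second copy. It moved to 384 at −log10 q of at least 10, to 134 with lists of equal length and to 2323 with at least 5 proximal calls and at most 1 distal call. It ran from 897 to 1452 with a replicate number left out (1375 without replicate 2 and 1452 without replicate 3) and from 647 to 1016 with 1 library left out, the highest without proximal WENR-minus replicate 2. All 10 of the strongest regions stayed proximal-only under the 5 changes of threshold, list length and overlap. The changes of threshold and list length only remove peaks, so they could add no distal call to these regions. At such strength this outcome was largely set in advance. Of the 640 regions, 374 stayed at −log10 q of at least 5, 106 at 10 and 74 with equal lists.

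The promoter share was 6.56% within 1 kb and 10.6% with protein-coding start sites only. The Cdx2 share was 79.1% with equal lists, 77.3% within 100 bp, 33.0% within 25 bp and 56.1% to 66.3% with a replicate number left out. Groups of at least 3 held 3 regions with equal lists, 6 at 25 kb, 36 at 100 kb and 28 to 78 with a replicate number left out, the most without replicate 2. Genes within reach were 162 with equal lists, 230 at 10 kb, 1331 at 100 kb and 1069 to 1638 with a replicate number left out.

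Calls in the replicate number left out averaged 78.0% in proximal and 9.37% in distal libraries, and 84.7% and 12.5% with equal lists. The low distal shares are largely built into the choice, as said above, and were not tested. The medium comparison gave 0 calls under quantile normalisation, percentiles, no centring, the stricter peak threshold and with any replicate number left out. With the replicate number as a block limma gave 16 calls at an adjusted p under 0.05, 12 higher (0.2% of 6005) and 4 lower (0.0666%) in WENR-minus organoids, of which 8 and 1 were proximal-only (1.25% and 0.156% of 640). The block brought 6 of the 10 named regions past the threshold without a change of sign and moved none of the others across it. In limma with the block these were Gabbr2 (adjusted p 0.0197), Mid1ip1 (0.025), and Cdc5l, Slc17a2, Csgalnact1 and Muc4 (0.0495 each). Same-numbered libraries deviated together at 0.0987, 0.34 and 0.49 for replicates 1 to 3 (other pairs −0.407 to 0.137), and 4 of the 6 libraries correlated best with their own number, with the exception of both libraries of replicate 1. The pairing is therefore not established, and calls made with the block rest on it. The paper reports that differences between mice made up most of the variation in Cdx2 binding across its libraries. The sources used here do not tie the replicate numbers to those mice. If the numbers do mark mice, the fit without the block counts differences between mice as spread. The 10 strongest regions ranked between percentiles 95.02 and 99.4 by −log10 q. What a missing distal call shows is limited by depth, by the share of reads in peaks and by the lower Cdx2 level that the paper reports distally. It is also limited by the length of the distal lists, the shortest of which held 5608 peaks.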
